A study of Homo sapiens with 8 samples.

Results

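The stretch of chromosome 2 from 28.0 to 29.0 Mb (hg19, chr2:28000001-29000000) surrounds FOSL2, and it held 232 of the 186774 H3K27ac peaks deposited for chromosomes 1 to 22 and X. H3K27ac is the acetylation of lysine 27 on histone H3. The window was chosen by its count of regions that had a peak with both CEBPB siRNAs but in no control library, so all comparisons of peak calls between the treatments inside it are descriptions, with no test. Joining peaks of the 4 libraries that shared 1 bp or more gave 89 regions here, out of 60669 in all. FOSL2 was placed at 28.616 to 28.638 Mb, positions rounded to 1 kb, and distances below run from the nearest end of a region to the nearest end of the gene.

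All libraries came from A549, an established line of human lung adenocarcinoma cells. There were 2 control libraries from cells given a control siRNA, 1 library from cells given CEBPB siRNA-1 and 1 from cells given CEBPB siRNA-2. The medium was changed 24 h after transfection and chromatin was taken after a further 24 h. The 2 siRNAs served as the replicates of the knockdown, and nothing in the labels says that the controls were independent cultures, which means that their spread may be technical. The lists give neither the level of CEBPB left nor any transcript of FOSL2, and the A549 label was not checked against marker genes because only FOSL2 was placed on the hg19 peaks.

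FOSL2 encodes Fra-2, a basic leucine zipper protein of the FOS family. FOS proteins pair with JUN proteins to form AP-1, a transcription factor that binds short palindromic sites in promoters and enhancers. CEBPB, the target of the siRNAs, is also a basic leucine zipper protein but binds a different palindrome. H3K27ac marks active promoters and enhancers. In the order of protein-coding genes in RefSeq, SLC4A1AP, MRPL33, RBKS (ribokinase) and BABAM2 (a subunit of deubiquitinase complexes) precede FOSL2. PLB1 (a phospholipase), PPP1CB (a catalytic subunit of protein phosphatase 1), SPDYA and TRMT61B follow it. "Upstream" below means toward BABAM2 and "downstream" toward PLB1. These neighbours were not placed on the hg19 peaks, so regions placed relative to FOSL2 may lie inside them.

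The start of FOSL2 lay under an acetylated region in every library, and its sequence is shown because the highest point of that region sat at different places in the 2 treatments. The 250 bases before the gene's start are taken from RefSeq (GRCh38.p14, chr2:28392608-28392857, plus strand), a build whose coordinates do not apply to the peaks. The second line is the stretch at chr2:28392852-28392878 of the same build, which spans the start, with the only match to the AP-1 motif in capitals.

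FOSL2 before the start: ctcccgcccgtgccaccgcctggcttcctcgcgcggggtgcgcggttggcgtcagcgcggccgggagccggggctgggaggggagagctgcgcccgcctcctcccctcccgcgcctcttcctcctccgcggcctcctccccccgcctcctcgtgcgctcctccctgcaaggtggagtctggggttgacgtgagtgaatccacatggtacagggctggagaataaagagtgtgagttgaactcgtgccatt
FOSL2 across the start: gccattgtagTGACTCAtctcgggcag

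The 250 bases are rich in G and C, at 69.6% against a median of 58.0% over 35116 RefSeq promoters, and hold 24 CpG dinucleotides against a median of 11. On either strand of the 300 bases from 250 before to 50 after the start, TGANTCA (AP-1) matched once, as TGACTCA from base 5 after the start, and 7.71% of promoters of the same length hold a match. TTGCNNAA (C/EBP) and TGACNNNGC (antioxidant response element, the site of NRF2) had no match, and 10.5% and 13.3% of promoters hold one. These are letter matches, with no measure of binding.

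Over the whole window, both knockdown libraries had more peaks and more called length than both controls. Control 1 had 45 peaks, control 2 had 41, the siRNA-1 library 70 and the siRNA-2 library 76. Called length, the bases covered by peaks, was 93.2 and 91.2 kb in controls 1 and 2, and it was 129.9 and 134.8 kb with siRNAs 1 and 2. The groups did not overlap in either measure. For the number of peaks, no share over the whole series was computed. The whole lists also held more peaks with the siRNAs, 47370 and 48216, than in controls 1 and 2, 45537 and 45651. The means were 132.3 ± 3.52 kb after knockdown and 92.2 ± 1.48 kb in controls (SD, n = 2 each), a 1.44-fold ratio. Within the numbers that the labels share, the knockdown library had 36.6 kb more than control 1 and 43.7 kb more than control 2. Of 2698 bins of 1 Mb with any peak, 32.3% had more called length in both knockdown libraries than in both controls, and 6 had a larger difference of means than this one. The median difference over bins was 0.284 kb.

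**Figure D1:**
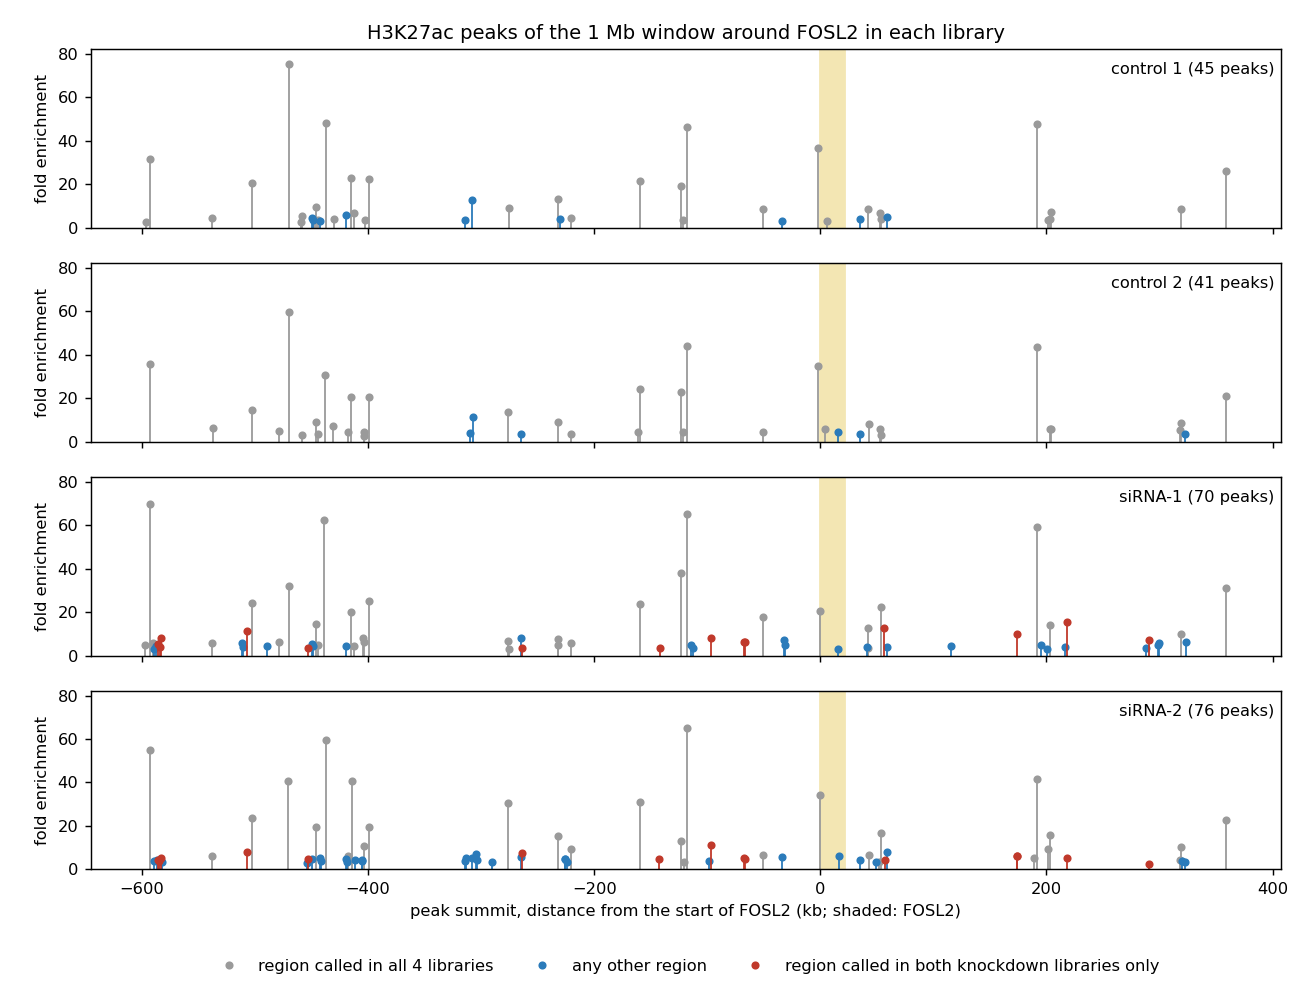
Each vertical line is a peak at its summit (x axis, distance from the start of FOSL2 in kb) with its fold enrichment (y axis, a linear ratio from the deposited list), in 1 panel per library; grey marks regions called in all 4 libraries, red those called in both knockdown libraries only and blue all others. The controls have 45 and 41 peaks and the knockdown libraries 70 and 76, and the red and blue peaks added in the lower panels are mostly low.

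Called length was above both controls with both siRNAs in 8 of the 10 steps of 100 kb along the window, beside 28.8% of the 16075 such steps with a peak in the whole series. The window was chosen on the same contrast, so nothing is read from this share. Steps are given from the start of FOSL2, negative upstream, with the values of siRNA-1 before those of siRNA-2. The step from -616 to -516 kb held 4.74 and 4.61 kb in the controls and 12.1 and 13.6 kb with the siRNAs. The step from -116 to -16 kb held 1.85 and 1.75 kb in the controls and 7.56 and 5.68 kb with the siRNAs. The step that starts 84 kb past the start of FOSL2 had no peak in either control, and 2.19 and 0.672 kb with the siRNAs. The last step, from 284 to 384 kb, separated the groups only narrowly, with 4.06 and 4.67 kb in the controls and 8.57 and 4.75 kb with the siRNAs. Called length over the FOSL2 span itself was 4.82 and 4.55 kb in the controls and 4.88 and 6.29 kb with the siRNAs. The 22 kb of the gene body thus added 0.897 kb to the difference of means, the 616 kb upstream 26.3 kb and the 362 kb downstream 13 kb. These amounts are not scaled to the length of each stretch. The siRNAs differed in where they stood highest: siRNA-2 had more called length upstream, 109 kb against 93.1 kb, and siRNA-1 more downstream, 31.9 kb against 19.5 kb.

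**Figure D2:**
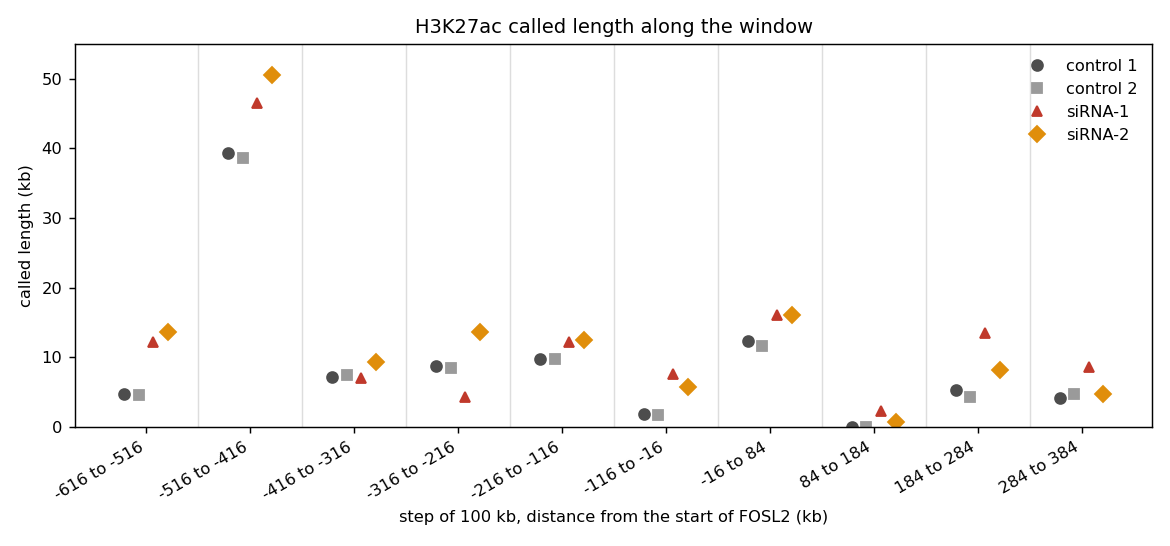
Called length (y axis, kb) in 10 consecutive steps of 100 kb (x axis, distance from the start of FOSL2), with 1 point per library. The triangles and diamonds of the knockdown libraries lie above both controls in 8 steps; in the steps from -416 to -316 kb and from -316 to -216 kb siRNA-1 lies below the controls and siRNA-2 above.

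New regions, those called with both siRNAs and absent from both control lists, numbered 14 of the 89, and no region went the other way. The 14 regions were 15.7% of the window, beside 6.76% of merged regions in the whole series. The share lost, with a peak in both controls only, was 0 of 89 beside 7.01% in the whole series. Since the count of new regions chose the window, nothing is read from these shares. As many new regions or more were found in 2 bins of 1 Mb, this one included, and the median bin had 1. The count of 14 became 39 without the siRNA-1 library and 33 without the siRNA-2 library, since 1 knockdown call then suffices, and 4 of the 14 reached a −log10 q of 10 with both siRNAs.

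Of the 14 new regions, 10 lay upstream of FOSL2, 4 downstream and 0 in the gene, at 33.9 to 585.9 kb from its nearest end. The 23 regions called in all 4 libraries lay 16 upstream, 6 downstream and 1 over the gene. For the 52 regions called in any other combination these counts were 38, 13 and 1. The new regions were thus placed much like the rest of the window, and nothing is read from their split. Whether they lie inside other genes was not examined, since only FOSL2 was placed. The new regions covered 15.2 kb in the siRNA-1 list and 13.1 kb in the siRNA-2 list. Called length per region ran from 239 to 2823 bp with siRNA-1 (median 883) and from 220 to 2001 bp with siRNA-2 (median 728.5). Most were modest peaks: the median −log10 q was 15 with siRNA-1, at a median percentile of 53.5 in that list, and 7.29 with siRNA-2, at percentile 36.1. A control peak lay within 1 kb of 2 of them, and 7 were 10 kb or more from any control peak.

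**Figure D3:**
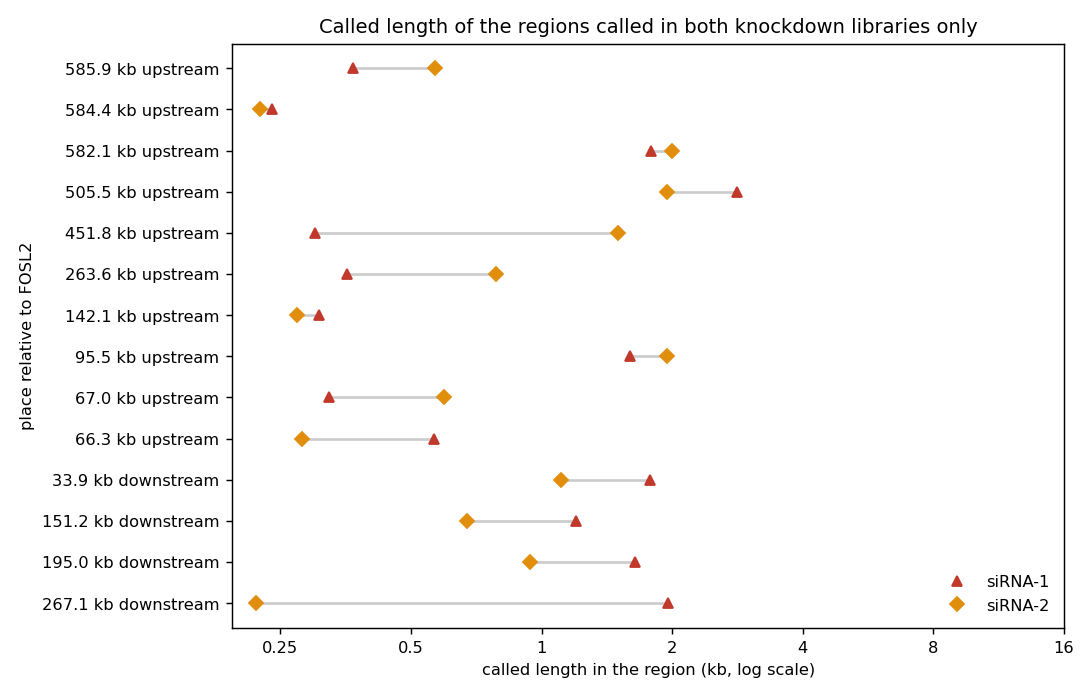
Called length (x axis, kb on a log scale) of each of the 14 new regions, ordered along the chromosome and labelled with the distance from the nearest end of FOSL2 (y axis). Triangles are siRNA-1 and diamonds siRNA-2; 8 regions are longer with siRNA-1, the 4 downstream ones among them.

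Within 100 kb of FOSL2 there were 4 new regions. The strongest, which was also the strongest of all 14 by the lower of its 2 −log10 q values, lay 95.5 kb upstream (chromosome 2, 28518586 to 28520545). It covered 1597 bp with siRNA-1, at a fold enrichment of 7.91 and a −log10 q of 21.2, and 1946 bp with siRNA-2, at a fold enrichment of 11.3 and a −log10 q of 27.3. The nearest control peak was 18.2 kb away. A pair of small neighbouring regions followed at 67.0 and 66.3 kb upstream. The first (28548300 to 28548957) covered 324 bp with siRNA-1 and 595 bp with siRNA-2, at fold enrichments of 6.36 and 5.45 and −log10 q values of 12.8 and 7.57. The second (28549134 to 28549697) covered 564 and 280 bp, at fold enrichments of 6.15 and 4.77 and −log10 q values of 9.56 and 5.81. The pair lay 15 kb or more from any control peak. That both siRNAs had a peak at each spot follows from how new regions were defined.

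The fourth region near the gene lay 33.9 kb downstream (28671867 to 28673643). It covered 1777 bp with siRNA-1, at a fold enrichment of 12.7 and a −log10 q of 31.4, and 1107 bp with siRNA-2, at a fold enrichment of 4.14 and a −log10 q of 6.66. The nearest control peak was 1.36 kb away. Together with the kept region 29.7 kb downstream, described below, it makes up a stretch in which both siRNAs called more bases than either control. This follows from how both regions were picked.

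Farther out, the remaining 4 of the 5 strongest new regions lay on both sides of FOSL2. A region 505.5 kb upstream (28107657 to 28110479) covered 2823 bp with siRNA-1 and 1951 bp with siRNA-2, at fold enrichments of 11.1 and 7.80 and −log10 q values of 30.9 and 16.4. A control peak lay 0.424 kb from it. A region 582.1 kb upstream (28031619 to 28033856) covered 1787 and 2001 bp, at fold enrichments of 8.12 and 5.27 and −log10 q values of 17.1 and 12.5. Downstream, a region at 151.2 kb (28789234 to 28790435) covered 1202 and 672 bp, at fold enrichments of 9.89 and 6.29 and −log10 q values of 30.6 and 12.1. A region at 195.0 kb (28833006 to 28834648) covered 1643 and 942 bp, at fold enrichments of 15.2 and 5.17 and −log10 q values of 42.9 and 9.12. Both downstream regions were over 12 kb from a control peak, at 14.9 and 12.7 kb, and both were shorter with siRNA-2.

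The other 6 new regions were weaker with at least 1 siRNA. Those 585.9, 584.4, 451.8, 263.6 and 142.1 kb upstream had a lower −log10 q between 3.24 and 5.04. The one 267.1 kb downstream (28905092 to 28907043) had 1952 bp and a −log10 q of 17.5 with siRNA-1 but 220 bp and a −log10 q of 1.76 with siRNA-2, close to the weakest peaks of that list. Its place among the new regions rests on that 1 small peak.

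Regions called in all 4 libraries supplied the largest part of the added length. The 23 such regions covered 87 and 87.1 kb in the control lists and 103.1 and 106.2 kb in the knockdown lists. Their difference of means, 17.6 kb, was 43.9% of the difference over the window. New regions gave 35.3% of it and regions called in any other combination 20.8%. Among the 23, 10 were longer in both knockdown libraries than in both controls, beside 26.9% of the 24133 kept regions of the series, and 1 was shorter in both, beside 25.6%. The median ratio of mean called length, knockdown over control, was 1.16 here and 1.01 over all kept regions. Without the siRNA-1 library, 18 kept regions were longer than in both controls. Only 1 knockdown list then has to exceed the controls, and a region needs fewer lists to be kept. For that count no share over the whole series was computed.

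A knockdown length of 1.5 times the control length or more, comparing the shorter knockdown with the longer control, was met by 4 of the 23, beside 6.25% of all kept regions. The largest in bases lay 590.0 kb upstream of FOSL2 (28017930 to 28026012). It covered 4044 bp in control 1 and 3837 bp in control 2, against 7670 bp with siRNA-1 and 7639 bp with siRNA-2, a ratio of 1.89 (shorter knockdown length over longer control length, here and below). Fold enrichments at its summit were 31.7 and 35.9 in the controls and 69.7 and 54.8 with the siRNAs, each on the scale of its own list. Its summit stayed in place, at -593.35, -593.34, -593.35 and -593.33 kb from the start of FOSL2 in control 1, control 2, siRNA-1 and siRNA-2. New regions 582.1 to 585.9 kb upstream lay just beyond it on the side of FOSL2.

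Closest to FOSL2 was the longer region 29.7 kb downstream (28667725 to 28670493). It covered 1132 and 881 bp in the controls, against 2769 bp with siRNA-1 and 2126 bp with siRNA-2, a ratio of 1.88. Each control called it as 2 small peaks, siRNA-1 as 1 peak and siRNA-2 as 2. The highest fold enrichments were 6.65 and 5.88 in the controls, 22.1 for siRNA-1 and 16.8 for siRNA-2, and the highest −log10 q values 12.4, 9, 84.9 and 54.2. The region 178.5 kb downstream (28816549 to 28821332) covered 1844 and 1035 bp in the controls, against 4784 and 3213 bp, a ratio of 1.74. At its peak of highest −log10 q in each library, fold enrichments were 7.08 and 5.73 in the controls, 14.1 for siRNA-1 and 15.7 for siRNA-2. The region 402.4 kb upstream (28211339 to 28213562) covered 727 and 1159 bp, against 1807 and 2149 bp, a ratio of 1.56, with fold enrichments of 3.69, 4.30, 8.07 and 11 in the same order. The non-overlap of the groups in these 4 regions follows from how they were picked.

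The other 6 kept regions that were longer with both siRNAs had ratios from 1.03 to 1.41. Among them were adjacent regions 114.5 and 121.3 kb upstream. The region 114.5 kb upstream (28495156 to 28501500) covered 3706 and 4211 bp in the controls, against 6345 bp with siRNA-1 and 5175 bp with siRNA-2. Its neighbour 121.3 kb upstream (28491201 to 28494663) covered 2368 and 2510 bp, against 3290 and 3091 bp. The longest region of the window, 457.5 kb upstream (28136524 to 28158520), covered 19657 and 19886 bp, against 21831 and 21312 bp, a ratio of 1.07. Its highest fold enrichments were 31.9 and 40.9 in the knockdown lists and 75.3 and 59.6 in the control lists. Each value is on the scale of its own list. Its strongest peak by −log10 q stood at list percentiles 99.8 and 99.5 in the controls, 98.8 for siRNA-1 and 99.8 for siRNA-2. In the region 121.3 kb upstream the highest fold enrichments were 19.2 and 23 in the controls, 38.1 for siRNA-1 and 13.3 for siRNA-2. The percentiles there were 85.5 and 90.2 in the controls, 93.1 for siRNA-1 and 86.7 for siRNA-2. Added length thus did not always go with a higher fold enrichment or percentile. At 114.5 kb upstream the highest fold enrichments were 46.1 and 44 in the controls and 65.2 and 65.1 with the siRNAs. The 1 kept region that was shorter with both siRNAs lay 398.0 kb upstream (28214888 to 28218045), with 3158 and 2808 bp in the controls against 2522 and 2130 bp.

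**Figure D4:**
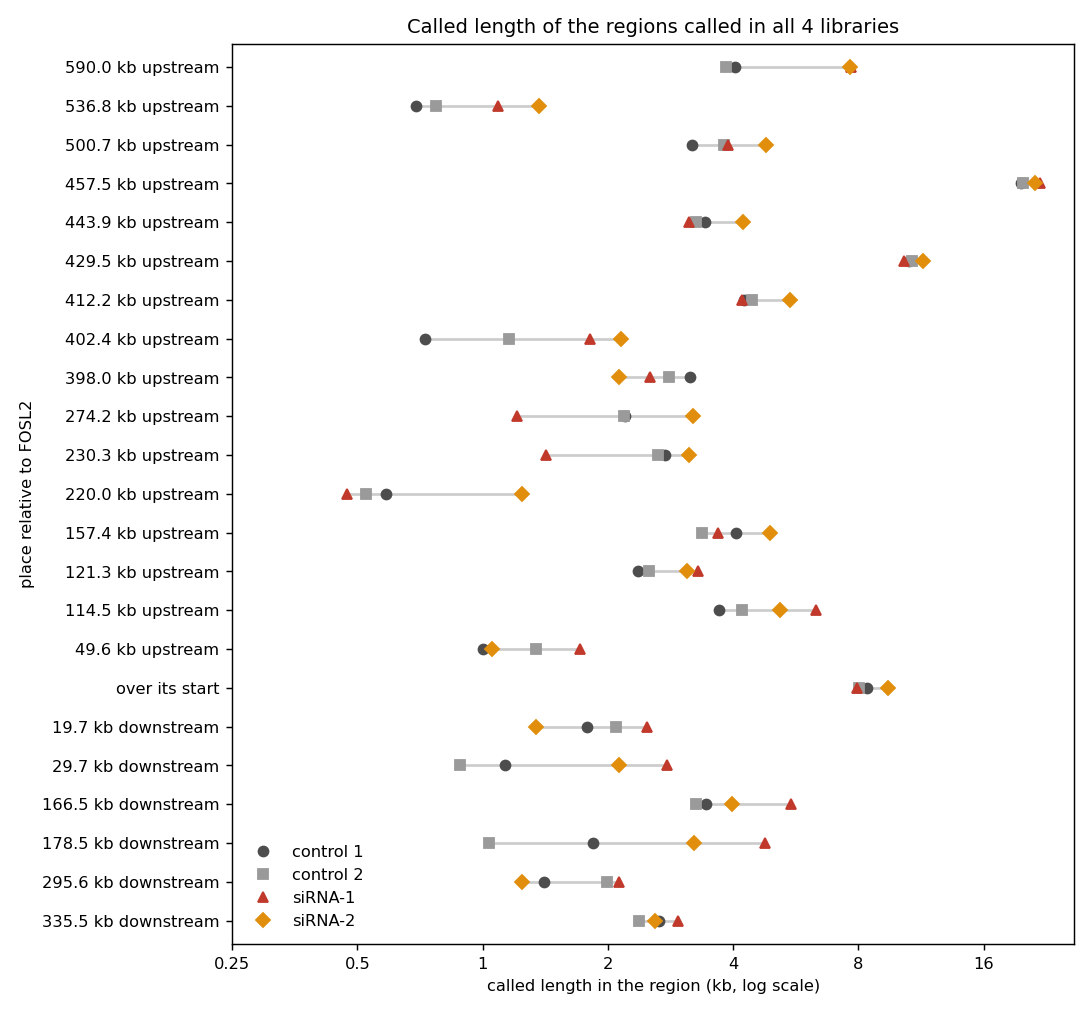
Called length (x axis, kb on a log scale) of the 23 regions called in all 4 libraries, ordered along the chromosome and labelled by distance from the nearest end of FOSL2 (y axis), with 1 marker per library. In 10 rows both knockdown markers lie to the right of both control markers and in 1 row, 398.0 kb upstream, to the left.

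At FOSL2 itself the region over the start did not separate the treatments by length. This region (28612126 to 28621548) covered 8380 bp in control 1 and 8014 bp in control 2, against 7936 bp with siRNA-1 and 9405 bp with siRNA-2, so siRNA-1 lay below both controls and siRNA-2 above both. Fold enrichments at the summit were 36.5 and 34.8 in the controls, 20.4 for siRNA-1 and 34.3 for siRNA-2. A second region inside the gene (28631643 to 28632521) had 318 bp in control 2, 508 bp with siRNA-1 and 757 bp with siRNA-2, and no peak in control 1. No other merged region overlapped the gene.

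The summit of the region over the start lay upstream of FOSL2 in both controls and at its start with both siRNAs. It was at 28613631 in control 1 and 28613765 in control 2, 2.37 and 2.24 kb before the start. With siRNA-1 it was at 28616098 and with siRNA-2 at 28616011, 0.10 and 0.01 kb past the start as rounded to 1 kb. Summits thus lay within 500 bp of each other inside each treatment and over 1.5 kb apart between treatments. This held for 1 of the 23 kept regions of the window, beside 0.605% of all kept regions and 5.65% of the 832 that were at least as long. The comparison of summits and its distances were chosen after these values were seen. Each deposited peak has a single summit, so the lists do not show whether the lower of the 2 high points was still present in either treatment.

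**Figure D5:**
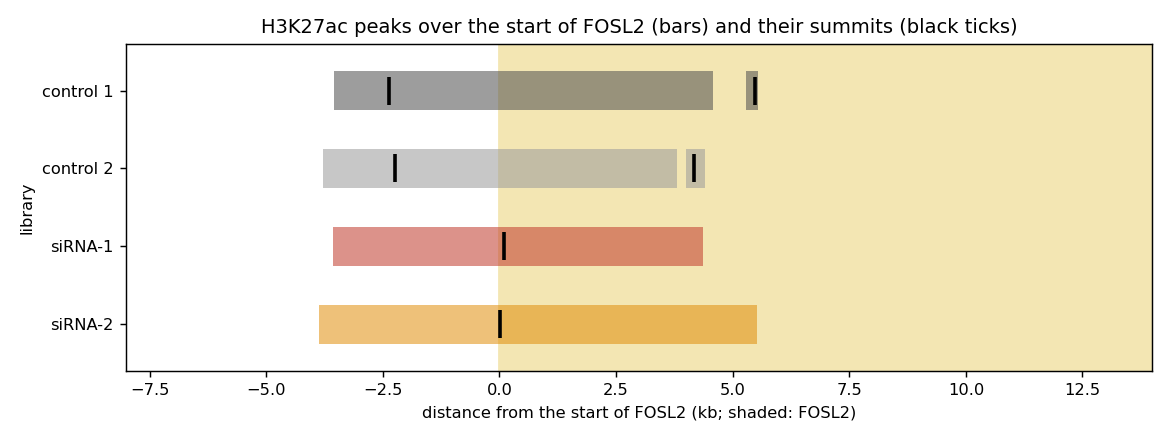
Peaks over the start of FOSL2 as bars, with their summits as black ticks (x axis, distance from the start of the gene in kb), in 1 row per library (y axis). The bars cover nearly the same stretch in all 4 libraries, and the main summit lies at -2.37 and -2.24 kb in the controls and at 0.10 and 0.01 kb with the siRNAs.

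In the middle of the upstream stretch the siRNA-1 library lay below both controls and the siRNA-2 library above both. In the step from -316 to -216 kb, called length was 8.78 and 8.46 kb in the controls, 4.24 kb for siRNA-1 and 13.6 kb for siRNA-2. Kept regions 274.2 and 230.3 kb upstream followed this order. The first (28338603 to 28341798) covered 2204 and 2183 bp in the controls, 1209 bp with siRNA-1 and 3196 bp with siRNA-2. The second (28382535 to 28385738) covered 2744 and 2641 bp in the controls, 1423 bp with siRNA-1 and 3132 bp with siRNA-2. A region 306.6 kb upstream (28306733 to 28309402) had 2324 and 2605 bp in the controls and 1829 bp with siRNA-2, and no peak with siRNA-1. Of the 23 kept regions, 7 were below both controls with siRNA-1 and above both with siRNA-2, beside 4.80% of all kept regions of the series. The reverse held for 2 of the 23, beside 12.0%. With 1 library per siRNA, a difference between the siRNAs cannot be told apart from a difference between libraries.

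Both adjoining windows also had more called length with both siRNAs than in either control, as did 32.3% of all bins. In the window before, it was 50 and 44.3 kb in the controls and 58.8 and 57.3 kb with the siRNAs. In the window after, it was 26.8 and 25.1 kb in the controls and 33.2 and 28.3 kb with the siRNAs. By number of peaks, the window before had fewer with both siRNAs than in either control and the window after had more. In the 1 Mb before, there were 42 and 43 control peaks, 34 peaks for siRNA-1 and 39 for siRNA-2, called length was 47.1 ± 4.05 kb in controls and 58 ± 1.08 kb after knockdown (SD, n = 2 each), and 3 regions were new and 4 lost. In the 1 Mb after, there were 15 and 14 control peaks and 19 for each siRNA, called length was 25.9 ± 1.19 and 30.7 ± 3.49 kb (SD, n = 2 each), and 2 regions were new and 2 lost. The difference in called length between this window and its neighbours was not tested. The share of all bins with fewer or more peaks in both knockdown libraries was not computed. At the lower edge, the last peaks outside had fold enrichments of 3.05, 11.9, 4.46 and 12.9 in control 1, control 2, siRNA-1 and siRNA-2, and the first inside had 2.61, 35.9, 5.03 and 54.8. These are not the same peak in each library. In control 1 and siRNA-1 the first inside was a small peak beside the main one of the region 590.0 kb upstream. That main peak had 31.7 in control 1 and 69.7 with siRNA-1. At the upper edge the last peaks inside had 25.9, 21.1, 31.1 and 22.6, and the first outside 24.9, 25, 22.3 and 10.1.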

How the data were processed

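H3K27ac peak lists of 4 A549 libraries were used, and the 4 input libraries were not analysed here. The submitters' processing notes name hg19, MACS2 2.2.7.1, BWA 0.7.17 and SAMtools 1.7.0; options are not given in the sources read. The authors deposited 1 list per library, with no pooling of replicates. For each peak the deposited columns used were start, end, summit, fold enrichment (a linear ratio) and −log10 q; the deposited −log10 p and score were not used. Both are the authors' own values, each on the scale of its own list. They are printed side by side, the lower siRNA −log10 q ranked the new regions and 1 threshold was used in all lists, but no ratio between lists was computed from them. The lists hold no read counts, so the depth is unknown, and a missing peak is not an absence of acetylation.

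Merging joined autosomal and X peaks that shared 1 bp or more, with Python 3.11.15 and pandas 2.3.3; figures used matplotlib 3.10.9. Merging was tested on simulated lists with a single peak per region and regions far apart. Split or closely spaced peaks, as in this window, were not simulated. No test was made, since the window was chosen from the same 4 libraries. Named regions were every new region by place, the 5 strongest and those within 100 kb of FOSL2 in full, kept regions at FOSL2, and kept regions longer by 1.5 times or more; others were added after their values were seen. The window, members and lists were chosen with earlier results of these data known. The fixed lists of AP-1 genes and of cell type markers were not placed on hg19 and gave no value. Alternatives covered merging, thresholds, equal called length, left-out libraries and a narrower window.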

Additional observations from a re-analysis of the deposited data

Results flagged for a closer look

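In 2 of the 10 steps of 100 kb, the siRNA-1 library had less called length than both controls and the siRNA-2 library more than both. Relative to the control mean, the step from -416 to -316 kb (distance from the start of FOSL2) stood at -0.32 kb for siRNA-1 and at 2.04 kb for siRNA-2. The step from -316 to -216 kb stood at -4.38 kb for siRNA-1 and at 4.98 kb for siRNA-2. The difference between the siRNAs was not tested, as each has 1 library.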

How the results depend on the processing

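No alternative changed the sign of a difference. The 14 new regions became 9 with reciprocal overlap of 50%, 8 when peaks within 1 kb were stitched and 6 within 10 kb, where larger units are counted. They became 6 when each list was limited to peaks at −log10 q 10 or above, 4 with that threshold only where called, 4 within 100 kb of FOSL2, 10 at equal called length and 12 with no control peak within 1 kb, a choice made after seeing the data. Without each library in turn they ranged from 17 to 39. Each omission loosens the definition of a new region, so nothing is read from this rise. The added called length of 40.1 kb was 33.3 kb at a −log10 q of 10 or more, 39.4 kb at equal called length, 8.2 kb within 100 kb of FOSL2 and 37.7 to 42.6 kb without each library. Paired by label number (replicate block) it was 36.6 and 43.7 kb. The 30 added peaks were 14.5 at a −log10 q of 10 or more, 6.5 within 100 kb of FOSL2 and 27 to 33 without each library. Kept regions longer with both siRNAs numbered 6, in place of 10, under the same limit on each list. Without each library they numbered 13 to 18, where the definition was again looser. Where no construction of the alternative accounts for a change, the cause was not tested.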

Other observations

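Regions called with a single siRNA, and in no other library, made up 38 of the 89 regions of the window. The siRNA-1 list alone held 17 and the siRNA-2 list alone 21, whereas each control list alone held 1. The siRNA-1 share was 19.1%, beside 13.1% of merged regions in the whole series, and the siRNA-2 share 23.6%, beside 7.98%. The share of each control was 1.12%, beside 7.78% for control 1 and 4.7% for control 2. These 38 regions were small, with a median length of 341 bp and a median −log10 q of 4.58, and 3 of them reached 10. A control peak lay within 10 kb of 30 of them. The one farthest from any control peak began 92.8 kb downstream of FOSL2 (28730822 to 28731812), with 991 bp at a fold enrichment of 4.37 with siRNA-1, 55.4 kb from the nearest control peak.

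In 6 further regions both siRNAs and 1 control had a peak. With control 1 there were 3, or 3.37% of the window, beside 1.87% of merged regions in the whole series. With control 2 there were also 3, or 3.37%, beside 1.25%. Of these 6 regions, the one with the highest −log10 q with siRNA-2 lay 36.7 kb downstream of FOSL2 (28674694 to 28675508). It had 445 bp in control 1, 333 bp with siRNA-1 and 815 bp with siRNA-2. Another, 264.5 kb upstream (28350747 to 28351524), had 238 bp in control 2, 778 bp with siRNA-1 and 648 bp with siRNA-2, and adjoined the new region 263.6 kb upstream.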
